A study of Mus musculus with 20 samples.

Results

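The comparison described here is that of infarct core tissue of mouse heart after ischemia-reperfusion (IR) with the tissue of its own sham operation (IRSham). It rests on 8 of the 20 samples of the series, 4 short-read RNA libraries of each group, chosen by their sample titles and by the columns of the deposited tables that carry their names. The treatment of the IR group is labelled as "LCA" for 40 min, without spelling out the letters, and reperfusion then lasted 72 h. The IRSham samples are labelled only as the same tissue as the IR group. Strain, age and sex are not given. Nothing in the labels ties a library to an animal of its own, and the p-values therefore speak of the spread among these libraries, which may be technical. A further 4 libraries after permanent myocardial infarction (MI, 72 h after surgery) and 4 of its sham (MISham) share the estimate of the spread in the tests and serve for 1 comparison near the end.

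A blocked coronary artery starves heart muscle of oxygen. The return of blood rescues part of it and damages part of it, and in the days that follow dead muscle is cleared by phagocytes while fibroblasts proliferate and lay down a collagen scar. Heart muscle cells live mainly on fatty acid oxidation, contract through the sarcomere and time their beat with calcium released from the sarcoplasmic reticulum. Many of their genes are also spliced into muscle forms that fibroblasts, leukocytes and fetal muscle do not make, or make less of.

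Library totals ran from 26.2 to 31.8 M counts in IR and from 25.5 to 29.8 M in IRSham. The defining genes of heart muscle were high in both groups. Myh6, the main myosin heavy chain of the mouse ventricle, held 4080 to 11900 CPM (read counts scaled to the size of their library by TMM) in IR and 37600 to 41100 in IRSham, and Mybpc3, a thick filament protein, held 2050 to 2690 and 4960 to 5830. The mitochondrially encoded share of counts was 3.26, 1.93, 3.25 and 1.93% in IR libraries 1 to 4, below the 6.74 to 7.21% of the IRSham libraries (two-sided exact permutation test p = 0.0286, the smallest 4 against 4 allow, and 0.0571 adjusted over 4 library measures). On the first principal component of the 8 libraries, which held 59.1% of the variance, IR libraries 2 and 4 lay at -102.7 and -98.7, IR libraries 1 and 3 both at -54.2, and the IRSham libraries between 70.1 and 91.9. In bulk tissue, fewer cells of a type and less RNA per cell cannot be told apart, here and in every result that follows.

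Of 19741 genes tested, 5814 were higher in IR (29.5%) and 5567 lower (28.2%) at an adjusted p under 0.05, together 57.7% of the genes, with a median log2 fold change of 0.03 over all genes tested. By at least 4-fold, 741 were higher and 650 lower. All 4 IR libraries lay above all 4 IRSham libraries in 4927 of the genes called higher and below them in 4862 of those called lower; such a gap between the groups was found in 26.1% and 25.4% of all genes tested. Scaling by library size alone moved the median of all genes to 0.32 and the counts to 8411 higher and 3754 lower, so that 69.1% of called genes were higher in place of 51.1%. A test against a 1.5-fold change called 2655 higher and 2762 lower.

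Genes of contraction and excitation in heart muscle were mostly lower. All 20 sarcomere genes were lower, with a median log2 fold change of -1.39, as were all 13 measured genes of sarcoplasmic reticulum calcium cycling (median -1.30), 11 of 12 intercalated disc genes (-0.97), 18 of 20 conduction and repolarisation channels (-1.66) and 11 of 15 genes of adrenergic and muscarinic signalling (-1.14). Not a single member of these 5 lists was called higher. A further muscle list, of Z-disc stress and actin remodelling, was mixed, with 8 of 16 higher, 3 lower and a median of 0.24. Csrp2, a LIM domain protein, rose by 2.09 ± 0.17 and Xirp2, an actin-binding repeat protein, by 1.82 ± 0.17. The 3 called lower were Bag3 (-0.99), Nrap (-0.69) and Xirp1 (-0.45). The summed level of this list overlapped between the groups, at 7260 to 9060 CPM in IR and 7110 to 8400 in IRSham. The summed level of the sarcomere list was 23300 to 40700 CPM in IR and 96600 to 104000 in IRSham.

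Among the sarcomere genes the largest fall was that of Tcap, the titin cap protein of the Z-disc, at 178, 88.5, 195 and 84.1 CPM in IR libraries 1 to 4 and 932, 804, 834 and 835 in IRSham libraries 1 to 4 (log2 fold change -2.64 ± 0.38, SE; adjusted p = 3.18e-05). Myh6 fell by 2.34 ± 0.33 on the log2 scale (adjusted p = 8.92e-06), with 11900, 4080, 10600 and 4640 CPM in IR. IR libraries 2 and 4 were the lowest in both genes, and neither gene overlapped between the groups. Tnni3, cardiac troponin I, changed by -2.10 ± 0.29 and Myl2, the ventricular regulatory light chain, by -2.05 ± 0.29.

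Calcium handling genes followed the same order of libraries. Atp2a2, the calcium pump that refills the sarcoplasmic reticulum, stood at 5480, 1970, 5920 and 2550 CPM in IR and between 17100 and 18300 in IRSham (-2.16 ± 0.29, adjusted p = 5.67e-06). Its inhibitor Pln, phospholamban, changed by -2.14 ± 0.30, and Hrc, a calcium-binding protein of the same store, by -2.70 ± 0.48.

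The deepest falls among protein-coding genes with a mean of at least 10 CPM included genes of excitation and muscle-specific relatives of common proteins. Scn4b, a sodium channel beta subunit, held 5.71, 0.474, 11.9 and 2.06 CPM in IR libraries 1 to 4 against 63.6 to 71.3 in IRSham (-3.77 ± 0.58, adjusted p = 7.37e-05). Kcnip2, which helps form the channels of the transient outward potassium current, held 53.7, 7.64, 61.3 and 10.6 CPM against 320 to 385 (-3.40 ± 0.57). In both genes every IR library lay below every IRSham library, yet the IR libraries differed among themselves by several-fold. Of the other potassium channel genes, Kcnv2 changed by -2.93 ± 0.47 and Kcnd2 by -2.48 ± 0.19.

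The same depth was reached by Mylk4, a myosin light chain kinase of striated muscle (63.9, 4.35, 52.6 and 11.6 CPM in IR against 317 to 436; -3.53 ± 0.66), and Myh7b, a slow-type myosin heavy chain (34.8, 5.33, 60.1 and 10.8 against 186 to 272; -3.00 ± 0.59). Rpl3l, the ribosomal protein that striated muscle uses in place of Rpl3, stood at 55.9, 8.84, 60.3 and 15.5 CPM against 250 to 285 (-2.91 ± 0.47). Rpl3 itself rose by 1.17 ± 0.10 (597 to 785 CPM in IR, 284 to 309 in IRSham), and 18 of 20 measured genes of the ribosomal protein list were higher, with a median of 0.54 that kept its sign under all 3 scalings. Also among the 15 largest falls were Cyp1a1, A530016L24Rik, Wnk2, Smco1, Ces1d, Lrtm1, Efnb3, Dhrs7c and Ucp3, with log2 fold changes from -3.74 (Cyp1a1) to -2.80 (Ucp3).

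Genes of mitochondrial fuel metabolism were lower in nearly every member of the lists tested. Called lower were 22 of 22 genes of fatty acid uptake and oxidation (median -1.85), 19 of 19 of the tricarboxylic acid cycle (-1.54), 21 of 21 measured nuclear subunits of the respiratory chain (-1.57), 16 of 16 of branched-chain amino acid breakdown (-1.49), 9 of 9 measured mitochondrially encoded mRNAs (-1.84) and 9 of 10 of the creatine and adenylate shuttle (-1.60). Acadvl, the very-long-chain acyl-CoA dehydrogenase of fatty acid oxidation, held 198, 104, 261 and 98.2 CPM in IR libraries 1 to 4 and 651 to 728 in IRSham (-2.08 ± 0.26, adjusted p = 7.40e-06). Idh2, the mitochondrial isocitrate dehydrogenase, changed by -2.16 ± 0.32, and Cox6a2, a muscle subunit of cytochrome oxidase, by -2.21 ± 0.28.

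The transcription factors known to drive these enzymes were lower as well, 13 of 14 members with a median of -1.78. Ppara, the fatty acid receptor of this programme, held 10.9, 5.77, 15.9 and 6.07 CPM in IR against 45.1 to 57.3 (-2.36 ± 0.30, adjusted p = 9.67e-06). Its muscle coregulator Perm1 changed by -2.36 ± 0.34 and Klf15 by -2.23 ± 0.39. Only Nr4a1 of that list missed the threshold, with a log2 fold change of 0.68.

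Genes of glucose uptake and glycolysis were divided. Of 22 members 13 were lower and 4 higher, with a median of -0.54. Slc2a4, the insulin-responsive glucose transporter, fell by 2.37 ± 0.31 on the log2 scale, and the muscle phosphofructokinase gene Pfkm by 2.11. Pgam1, the widely expressed phosphoglycerate mutase, rose by 1.24 ± 0.15 (139 to 210 CPM in IR against 59.3 to 90.2), Eno1, enolase 1, by 0.92 ± 0.14, and Pfkp and Slc2a1 by 0.57 and 0.50, the last of which lost its call without IR library 3 or IRSham library 3. Of the creatine kinases, the muscle gene Ckm changed by -2.24 ± 0.37, while Ckb, the brain-type enzyme, rose by 0.96 ± 0.17.

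Against this fall, genes known from stressed hearts rose in part. Of 13 measured members of the natriuretic and fetal list 7 were higher and 1 was lower. The 5 not called were Tnni1 (0.44), Acta1 (-0.24), Nmrk2 (0.30), Myl4 (0.70) and Acta2 (-0.24). Nppa, atrial natriuretic peptide, stood at 321, 338, 149 and 281 CPM in IR libraries 1 to 4 and 26.1 to 60.3 in IRSham (2.58 ± 0.32, adjusted p = 9.26e-06). Gdf15, a stress cytokine, rose by 2.81 ± 0.33, and Ccn2, connective tissue growth factor, by 2.80 ± 0.18. Myh7, the slow myosin heavy chain that stressed mouse hearts are known to re-express, was lower at 185, 295, 662 and 230 CPM against 678 to 1470 (-1.46 ± 0.41, adjusted p = 0.00741); all 4 IR values lay below the lowest IRSham value, and IR library 3 was close to it.

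The largest rise of a protein-coding gene with a mean of at least 10 CPM was that of Sprr1a, a small proline-rich protein known from stressed epithelia and heart muscle. It held 430, 608, 169 and 655 CPM in IR libraries 1 to 4 and 4.38, 11.6, 12.4 and 3.19 CPM in IRSham libraries 1 to 4 (5.89 ± 0.72, adjusted p = 9.57e-06). IR library 3 was the lowest of the injured libraries and still more than 10 times the highest sham value. Other stress responses were mixed. In the unfolded protein response 13 of 17 measured genes were higher, led by Sdf2l1 (1.58) and Pdia4 (1.57). Among p53 targets 11 of 14 were higher, with Phlda3 at 1.49 and Cdkn1a, the cell cycle inhibitor p21, at 1.26, while Gadd45a (-1.42) and Ccng1 were lower. The heat shock list was divided, 6 higher and 5 lower of 14, where 29.5% and 28.2% of all genes tested were. The inducible Hspa1b rose by 1.56 ± 0.28, though its near-identical neighbour Hspa1a makes the assignment of reads uncertain. The small muscle chaperone gene Hspb6 fell by 1.48 ± 0.16.

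Immediate early genes, which cells switch on within minutes of a stimulus, were higher at 72 h in 13 of 16 members. Earlier times were not sampled. Egr2 stood at 18.7, 32.1, 18.8 and 39.1 CPM in IR against 1.5 to 5.28 in IRSham (2.97 ± 0.45, adjusted p = 5.30e-05). Egr3 rose by 2.63 ± 0.36. In the antioxidant list of NRF2 targets 8 of 15 were higher and 3 lower: Hmox1, heme oxygenase 1, held 458 to 650 CPM against 41.8 to 72.0 (3.39 ± 0.45), whereas Nqo1, the classical reporter of the pathway, fell by 1.22 ± 0.14.

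Among genes of cell death, 9 of 15 in the Bcl2 family were higher and 3 lower. In the list of gasdermins, inflammasome and necroptosis 10 of 13 were higher and none lower. Ripk3, the kinase that starts necroptosis, held 19.3, 31.5, 32.1 and 32.1 CPM in IR and 6.85 to 9.48 in IRSham (1.83 ± 0.27, adjusted p = 3.42e-05), and Mlkl, its executioner, rose by 1.24. Against a 1.5-fold change, 3 of these 10 were called. Of the 20 lysosomal genes 19 were higher (median 1.44), led by Atp6v0d2 (3.04 ± 0.52), a proton pump subunit of macrophages and osteoclasts, Ctss (2.05 ± 0.38) and Ctsb (1.95 ± 0.18), both cathepsins, and the single fall was that of Tfeb (-0.56), the transcription factor of lysosome genes. The low IR library in this list was library 3, whose mean log2 CPM lay 0.88 above sham where the others lay 1.25 to 1.56 above.

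Macrophage genes were higher in part. In the list of lipid-associated and scar macrophages 12 of 17 were higher and 2 lower (median 1.66). The summed level of this list overlapped between the groups, at 8070 to 9980 CPM in IR and 7200 to 8430 in IRSham. Gpnmb, a glycoprotein of lipid-laden macrophages, held 465, 798, 165 and 583 CPM in IR libraries 1 to 4 and 18.6 to 30.2 in IRSham (4.42 ± 0.55, adjusted p = 1.04e-05), and Spp1, osteopontin, 873 to 1250 against 41.8 to 156 (3.36 ± 0.64). Gpnmb was lowest in IR library 3 among the injured libraries; Spp1 was lowest in library 1.

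Of 13 recruited monocyte genes 7 were higher and none lower (median 1.17), with Ccr2, the receptor that brings monocytes from blood, at 138, 135, 108 and 172 CPM against 31.9 to 78.1 (1.33 ± 0.35, adjusted p = 0.0048). This list spread more widely in the sham libraries than in the injured ones, by 1.90 against 0.59 in mean log2 CPM. Of 14 genes of resident macrophages 8 were higher and 3 lower: Adgre1, the macrophage surface receptor F4/80, rose by 1.58 ± 0.26 and Igf1 by 1.71 ± 0.22, while Timd4 (-1.77 ± 0.47) and Lyve1 (-1.57 ± 0.27) fell. Folr2 of the same list was higher by 0.70 ± 0.25, and Vsig4 was not called, at 0.03 ± 0.35; both were named after their values were seen.

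Of 13 measured neutrophil genes 4 were higher and 1 was lower (median 0.64), a share called higher close to the 29.5% of all genes. S100a8, the most abundant calcium-binding protein of these cells, held 10.1, 11, 27.4 and 14.9 CPM in IR and 4.46, 16.9, 10.7 and 26.2 in IRSham (0.13 ± 0.60, adjusted p = 0.875), so the groups overlapped fully. Mmp8, the neutrophil collagenase, rose by 2.85 ± 0.36, and Lcn2, an iron-trapping protein of neutrophils and of stressed tissue, was lower by -2.08 ± 0.59. Without IRSham library 1 a single neutrophil gene was called higher, and without IRSham library 2 or 3 the count was 2. Ly6g, Camp and Ngp, which define these cells, did not pass the filter on low counts.

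Lymphocyte genes were scarce. Of 18 T and NK cell genes 6 were higher and of 10 B cell genes 2, where 29.5% of all genes tested were. The summed level of the T and NK cell genes was 30.0 to 44.7 CPM in IR and 10.3 to 17.7 in IRSham. Their count called higher was 3 without IR library 4 or IRSham library 4 and 2 without IRSham library 1. Among the mast cell genes, 4 of the 6 measured were lower, led by the proteases Cpa3 (-2.49 ± 0.52) and Mcpt4 (-2.40 ± 0.54), each under 2 CPM in every library, and Kit was higher by 1.22. Antigen presentation was raised in 16 of 18 members by small amounts (median 0.70), with 2 of them past a 1.5-fold change. The interferon-stimulated genes, 11 of 20 higher and none lower, depended on single libraries: 4 were called without IR library 2 or IRSham library 1, 5 without IRSham library 2, and 7 without IR library 4 or IRSham library 4.

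Secreted signals of repair were among the strong rises. Of 24 measured cytokines and growth factors 14 were higher: Inhba, the activin A subunit, held 17.0, 24.3, 28.1 and 33.1 CPM against 2.77 to 3.71 (3.02 ± 0.39, adjusted p = 1.16e-05), and Lif and Tgfb3 rose by 2.37 and 2.16. Of 22 chemokines 12 were higher. In the plasminogen and coagulation list 10 of 14 were higher and 3 lower, and F3, tissue factor, fell by 1.48 ± 0.16. The complement list was divided: C3ar1 and C5ar1, receptors for complement fragments, rose by 2.13 and 1.59, and C1qb and C1qc, subunits of the recognition molecule C1q that macrophages make, by 1.59 and 1.41, while C3 (-1.16), C4b (-0.88) and C1s1 were lower. Of its 15 measured members 6 were higher and 5 lower, where 29.5% and 28.2% of all genes tested were. The lower count was 3 without IR library 3, and the median of 0.00 was 0.28 under library size scaling.

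The scar matrix was built up at nearly the same level in all 4 injured libraries. Higher were 9 of 11 fibrillar collagens (median 2.04), 16 of 18 genes of collagen processing and crosslinking (1.24), 16 of 18 matricellular proteins (2.37) and 18 of 22 other collagens and laminins (1.03). Over the fibrillar collagens, IR libraries 1 to 4 lay 1.80, 1.95, 1.75 and 1.82 above the sham mean in log2 CPM, a spread of 0.20, whereas the fatty acid oxidation genes lay 1.45, 2.43, 1.34 and 2.34 below it, a spread of 1.09. The summed level of the fibrillar collagens was 22500 to 27400 CPM in IR and 4960 to 7710 in IRSham.

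Col1a2, a chain of collagen I, held 4780, 6050, 5030 and 5270 CPM in IR and 879 to 1330 in IRSham (2.23 ± 0.34, adjusted p = 3.17e-05). Lox, the enzyme that crosslinks collagen, held 374, 559, 491 and 448 CPM against 49.4 to 89.5 (2.71 ± 0.41). Tnc, tenascin C, a matrix protein of wounds, held 562, 816, 706 and 701 CPM against 39.7 to 64.7 (3.80 ± 0.59). In these 3 genes the injured libraries lay close together and far above sham.

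Postn, periostin, the matrix protein by which activated fibroblasts are known, held 2560, 2550, 1350 and 2050 CPM against 132 to 307 (3.29 ± 0.37), with library 3 the lowest. Library 3 was also the lowest injured library in some other matrix genes, picked here for that, although it was the highest in the mean of the metalloproteinase list (5.82 against 5.58 to 5.61 in log2 CPM). Col8a2 held 28.3, 18.7, 3.71 and 24.8 CPM in IR libraries 1 to 4 (3.98 ± 0.51), Thbs4, thrombospondin 4, 115, 106, 28.4 and 106 (3.41 ± 0.39), Cilp 252, 329, 86.6 and 271 (3.58 ± 0.41), and Fmod, the collagen-binding proteoglycan fibromodulin, 14.4, 16.6, 4.19 and 15 (4.02 ± 0.48). All of these values lay above every IRSham library. Acta2, smooth muscle actin, the contractile marker of myofibroblasts, did not follow: it held 290, 290, 348 and 290 CPM in IR and 224, 356, 330 and 528 in IRSham (-0.24 ± 0.21, adjusted p = 0.346; 0.00 without IRSham library 4). In the same list of 15 activated fibroblast genes 12 were higher, and Lrrc15 was lower by -2.20 ± 0.32.

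The resident fibroblast list did not move in 1 direction, 6 higher and 6 lower of 14, where 29.5% and 28.2% of all genes tested were. The sign of the list's median (-0.06) turned under library size scaling. Tcf21 and Mfap5, fibroblast genes, were higher by 1.10 and 2.36, and Hsd11b1, which activates glucocorticoids, fell by 2.42 ± 0.23. Among 21 metalloproteinases and inhibitors 15 were higher and 3 lower: Adam8, a protease of leukocytes, rose by 3.06 ± 0.54, and Timp4, the inhibitor made by heart muscle, held 3.60, 1.39, 8.02 and 0.508 CPM against 12 to 40.1 (-2.73 ± 0.71, adjusted p = 0.00469).

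Cell division genes rose without exception, 20 of 20 of G1 and S phase (median 1.66) and 22 of 22 of G2 and mitosis (2.59). Cdk1, the kinase that starts mitosis, held 34.1, 43.6, 51.4 and 51.8 CPM in IR and 4.62 to 7.44 in IRSham (2.91 ± 0.38, adjusted p = 1.50e-05). Top2a, the topoisomerase of dividing cells, held 114, 171, 171 and 168 against 14.6 to 31.3 (2.72 ± 0.31). IR library 1 was the lowest of the injured libraries in both, as in the mean of both lists. Which cells divided cannot be read from bulk tissue.

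Of 20 endothelial genes 10 were lower and 2 higher (median -0.17, and 0.12 under library size scaling). Car4, a carbonic anhydrase of capillaries, fell by 1.93 ± 0.25 and Kdr, the main VEGF receptor, by 0.93 ± 0.13, while Plvap, of fenestrated vessels, rose by 0.97 ± 0.16. Vegfa itself held 224, 118, 248 and 177 CPM in IR against 464 to 483 (-1.30 ± 0.18, adjusted p = 1.37e-05). Pgf, placental growth factor, rose by 1.42, and Cxcr4 by 1.96.

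Markers of tissues outside the ventricle differed by list. Not measured above the filter were Myl7, Sln and Bmp10 of atrium, Adipoq and Plin1 of fat, Sftpc, Sftpb and Scgb1a1 of lung and Myh1, Myh2 and Myh4 of skeletal muscle. The measured members gave summed levels, in IR and IRSham, of 218 to 420 and 101 to 140 CPM for 6 of 10 atrial genes, which include Nppa, of 659 to 977 and 1570 to 2180 for 6 of 10 skeletal muscle genes, which include Ckm, and of 14.4 to 45 and 126 to 148 for 3 of 7 lung genes. The part of such tissue in the results was not tested. The erythroid list, 6 of 7 measured, summed to 238 to 1330 CPM in IR and 192 to 429 in IRSham. The high value was that of IR library 3, in which Hba-a2, a globin gene with a near-identical copy, stood at 90 CPM against 32.3, 9.65 and 22.5 in the other IR libraries. The part of blood in the values of library 3 was not tested. Of 10 epicardial genes 3 were higher and 3 lower, where 29.5% and 28.2% of all genes tested were. Their summed level was 116 to 176 CPM in IR and 53.8 to 82.3 in IRSham.

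The clock genes moved as well: of 15 members 10 were lower and 3 higher (median -0.98). Dbp, an output gene of the circadian clock, held 14.7, 8.06, 8.45 and 6.49 CPM in IR and 52.6 to 58.1 in IRSham (-2.55 ± 0.20, adjusted p = 6.09e-08), and Hlf and Nr1d1 changed by -2.13 and -1.68. Arntl, the clock activator also called Bmal1, held 31.2, 25.8, 21.3 and 31.2 CPM against 11.2 to 16.8 and rose by 0.99 ± 0.15. The hour of day at which tissue was taken is not given in the labels, so it and the injury cannot be told apart here.

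**Figure D1:**
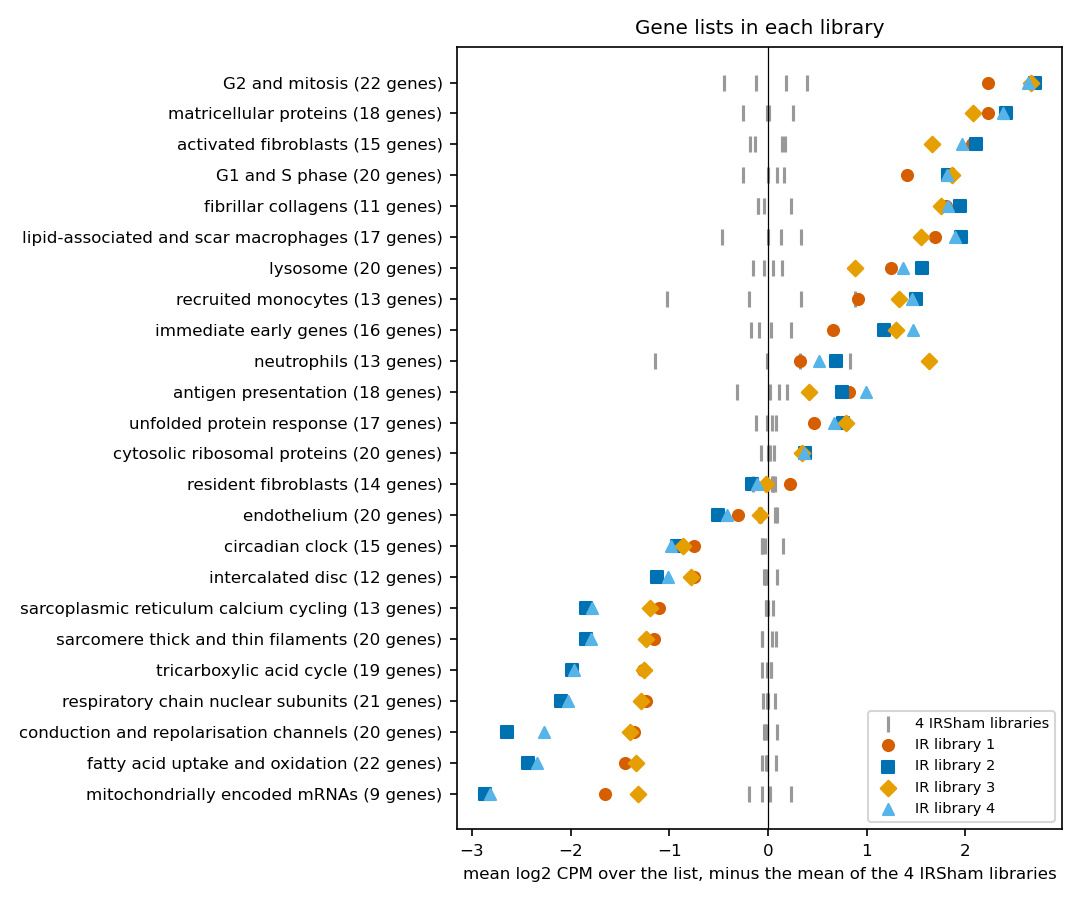
Mean log2 CPM over each of 24 gene lists, less the mean of the 4 IRSham libraries, for each IR library (coloured symbols) and IRSham library (grey ticks). In the muscle and metabolism lists at the bottom, IR libraries 2 and 4 lie farther from sham than 1 and 3, while the fibrillar collagens lie between 1.75 and 1.95 in all 4.

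The median SD of log2 CPM per gene was 0.252 over the IR libraries and 0.208 over the IRSham libraries. Over the genes called lower, IR libraries 1 to 4 had a median shift of -0.75, -1.05, -0.79 and -1.01 from the sham mean, and over the genes called higher 0.80, 0.97, 0.78 and 0.95. Libraries 2 and 4 both lay farther from sham than both 1 and 3 in 3072 of the 5567 genes called lower (55.2%) and in 2452 of the 5814 called higher (42.2%); the opposite order held in 207 and 214 genes. It held for all 6 cardiomyocyte and all 8 metabolism lists, for 4 of 9 matrix lists, for 3 of 13 immune lists and for neither proliferation list. The share of infarcted muscle in each sample is not given in the labels, and its part in this order was not tested. The mitochondrially encoded share of counts given above had the same order, but it is not separate from the metabolism list of mitochondrially encoded mRNAs. Libraries 2 and 4 were set apart from 1 and 3 by their values and not by the labels. The counts of genes and lists in that order are therefore a description.

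Of the 12 genes with the widest spread among the injured libraries 10 were called lower, against 28.2% of all genes tested. They were drawn from genes with a mean of at least 10 CPM over IR and IRSham together. A lowered gene can pass that filter through its IRSham values alone, with few counts in IR. The count of 10 is therefore a description. The SD of log2 CPM over IR was 2.48 for Cyp1a1, 2.10 for Ces1d, a carboxylesterase (30.2, 1.95, 22.2 and 2.18 CPM in IR against 95.3 to 117), 1.98 for Scn4b, 1.85 for Ucp3, a mitochondrial carrier, and 1.84 for Mylk4. The widest of all was Saa3, an acute phase protein, with an SD of 2.56, at 1.69, 1.28, 52.2 and 15.9 CPM in IR and 9.18, 30.4, 13.1 and 45.7 in IRSham, a range that overlapped and gave a log2 fold change of -0.47 ± 1.08. The others among the 12 widest were A530016L24Rik, Timp4, Myh7b, Kcnip2, Lingo3 and Gm21887.

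At the other end, some genes had the same level in every injured library. Cd248, endosialin, a surface protein of fibroblasts and pericytes, held 83.6, 85.5, 87.0 and 84.0 CPM in IR and 24.3, 27.4, 30.4 and 23.5 in IRSham (1.69 ± 0.28, adjusted p = 0.000113). H2afx, a histone variant that marks DNA breaks, held 61.4, 61.0, 63.3 and 64.4 against 16.1 to 20.8 (1.71 ± 0.08). Farp1, Tcf19, Tgfb1i1, Ptma, Cnn3 and Arfgap3 rose by 1.03 (Ptma) to 2.01 (Tcf19), with an SD over IR of at most 0.054. The tightest falls were smaller: Cyp4b1 held 10.6, 11, 11.8 and 10.3 CPM against 23.6 to 26.5 (-1.18 ± 0.10), and Trpt1, Mrpl45, Bcl7a, Alad, Slc25a33, Stk39 and Tom1l2 changed by -1.01 (Tom1l2) to -1.39 (Slc25a33). None of these 8 falls is as deep as those of Scn4b, Kcnip2, Mylk4, Myh7b and Rpl3l above, but some sarcomere genes fell no further, such as Ttn (-1.28 ± 0.18). The tight genes were chosen for their small spread, which is therefore a description.

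**Figure D2:**
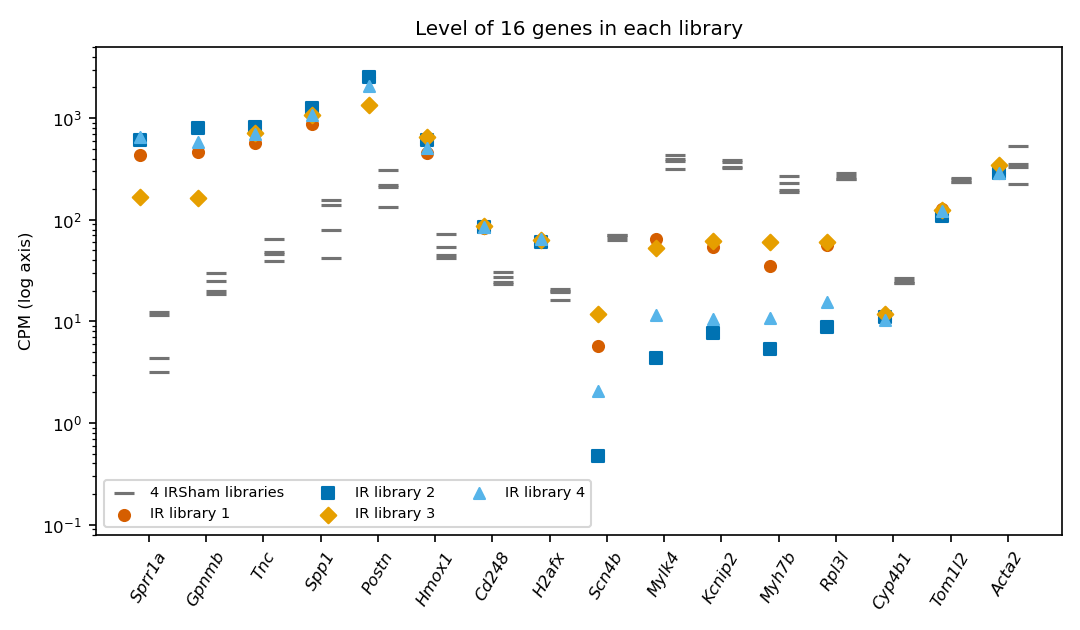
CPM (log axis) of 16 genes in each IR library (coloured symbols) and IRSham library (grey bars). The IR libraries lie together for Cd248, H2afx, Cyp4b1 and Tom1l2, and apart for Scn4b, Mylk4, Kcnip2, Myh7b and Rpl3l, where libraries 2 and 4 are the lowest; Acta2 overlaps between the groups.

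Transcripts were followed through the deposited TPM values (an abundance corrected for transcript length and library size). Of 40489 transcripts tested on the log2(TPM + 1) scale, 17191 were higher (42.5%) and 3739 lower (9.23%), with a median of 0.48. This split depended on the scale: with each library's TPM divided by a TMM factor, a setting added after the data were seen, 7730 were higher and 7913 lower with a median of 0.04. Among annotated transcripts Tpm1-211, a form of the actin-binding protein tropomyosin 1, stood at 28.7, 51, 48.7 and 50.8 TPM in IR and is listed at 0 in all 4 IRSham libraries. Tnnt2-207, a form of cardiac troponin T, stood at 23.5, 78.0, 21.3 and 46.5 TPM against values of at most 0.000419. The genes Tpm1 and Tnnt2 themselves were lower, by -1.04 and -1.52 on the log2 CPM scale. In the other direction Myl2-211 stood at 5.75 to 45.3 TPM in IRSham and is listed at 0 in all 4 IR libraries.

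Because a share within a gene does not depend on that scaling, the share of each gene's summed annotated TPM held by each transcript was used to describe isoforms. Of 7426 genes tested, 689 (9.28%) had a transcript whose share changed by at least 10 percentage points at an adjusted p under 0.05 (limma), and in 663 of these at least 1 such transcript did not overlap between the groups. Of the 688 that were also in the gene test, 219 were higher, 307 lower and 162 not called as genes. The count of 689 rests on the spread estimated over all 16 libraries: with the 8 IR and IRSham libraries alone it was 183, without IR library 2 it was 417 and without IR library 4 it was 458.

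In each of the 689 genes the transcript that gained most was set against the one that lost most. They began at different first exons in 362 genes, ended at different last exons in 292, differed by an inner exon in 237 and by a retained intron in 45, where 1 gene can count under several. Where both were protein-coding, shared their first and last exons and differed by an inner exon, in 119 genes, the exon lay in the losing transcript alone in 84 (70.6%), in the gaining one alone in 30 (25.2%), and the pair swapped exons in 5. Among 535 tested genes of the same kind that were not called, the corresponding shares were 54.4%, 39.8% and 5.8%. Loss of an inner exon was thus more frequent among the called genes, as a description with no test.

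Of the 84 called genes whose differing inner exon or exons lay in the losing transcript alone, 24 had 51 bases or fewer there. Single coding exons of genes described below, picked for that, and the Pkm pair are printed from the GENCODE M21 transcripts (GRCm38), each in the sense of its transcript, 5′ to 3′, with the exon in capitals and 12 transcript bases on each side in lower case. For each of these transcripts the length in GENCODE M21 equalled the length in the deposited table. The first 5 are coding exons of the transcript that lost share, and the Pkm lines give the gained and the lost exon of a pair that replace each other.
Psap-205: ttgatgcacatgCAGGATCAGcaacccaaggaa
Mef2a-208: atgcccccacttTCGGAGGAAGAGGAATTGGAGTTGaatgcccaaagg
Clta-203: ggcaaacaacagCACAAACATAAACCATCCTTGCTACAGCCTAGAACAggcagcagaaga
Mpp6-203: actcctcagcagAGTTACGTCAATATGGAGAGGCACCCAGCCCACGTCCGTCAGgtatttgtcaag
Fxr1-201: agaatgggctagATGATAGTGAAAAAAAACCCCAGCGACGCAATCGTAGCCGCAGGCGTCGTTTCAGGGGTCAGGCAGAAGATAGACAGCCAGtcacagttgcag
Pkm-201: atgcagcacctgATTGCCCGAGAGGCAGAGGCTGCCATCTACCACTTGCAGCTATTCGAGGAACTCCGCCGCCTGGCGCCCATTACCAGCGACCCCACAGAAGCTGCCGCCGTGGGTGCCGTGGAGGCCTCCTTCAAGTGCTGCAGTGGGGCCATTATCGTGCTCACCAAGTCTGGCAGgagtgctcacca
Pkm-202: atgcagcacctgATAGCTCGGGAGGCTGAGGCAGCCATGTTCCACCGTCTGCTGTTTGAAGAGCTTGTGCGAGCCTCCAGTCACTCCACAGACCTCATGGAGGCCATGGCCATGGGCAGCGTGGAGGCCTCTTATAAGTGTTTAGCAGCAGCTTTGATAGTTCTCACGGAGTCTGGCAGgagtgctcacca

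Psap encodes prosaposin, the precursor of lysosomal lipid-binding proteins, and lies on chromosome 10. Its exon of 9 bases is the shortest of those shown. Psap-205, which holds it, had 65.7, 61.1, 57.4 and 59.8% of the gene's TPM in IRSham libraries 1 to 4 and 15.4, 7.7, 18.4 and 7.7% in IR libraries 1 to 4, a change of -48.7 ± 3.6 points (SE; limma adjusted p = 1.04e-05). Psap-202, without it, went from 29.8 to 39.0% up to 79.0 to 90.1%. The gene rose by 0.94 ± 0.15 in the count test, so the form with the exon lost share within a gene that rose.

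Mef2a, on chromosome 7, encodes a transcription factor of muscle genes, and its exon of 24 bases is the one known as the beta exon of striated muscle and brain. Mef2a-208, which holds it, had 69.7, 70.9, 65.1 and 71.9% in IRSham and 55, 34.6, 37.6 and 39.5% in IR (-27.7 ± 4.2 points, adjusted p = 0.00244), and Mef2a-204, without it, gained 24 ± 4.3 points. The groups did not overlap in either, and IR library 1 was nearest to sham. The call for Mef2a-204 was lost on a logit scale of the shares; that for Mef2a-208 was not.

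Snap23 and Clta belong to membrane traffic, a fusion protein of the plasma membrane and a light chain of clathrin, on chromosomes 2 and 4. Snap23-203, with the exon of 33 bases, fell from 27.7, 32.0, 21.5 and 28.3% in IRSham to 7.4, 3.7, 7.4 and 4.2% in IR (-21.7 ± 2.4 points, adjusted p = 0.000289). Clta-203, with the exon of 36 bases, fell from 21.9, 23.3, 26.3 and 20.1% to 4.5, 4.9, 4.3 and 5.2% (-18.2 ± 3.4 points, adjusted p = 0.00752). In Clta the 4 injured libraries lay within 1 point of each other. Both genes were higher in the count test, Clta by 1.11 and Snap23 by 0.18.

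Mpp6, a scaffold protein gene on chromosome 6, and Fxr1, an RNA-binding protein gene on chromosome 3 known for its muscle isoforms, had wider spreads. Mpp6-203, with the exon of 42 bases, held 46.4, 37.6, 83.9 and 42.4% in IRSham and 26.3, 6.2, 15.5 and 21% in IR, a change that lost its call without IR library 2, while the rise of Mpp6-202 by 42.2 ± 4.8 points was kept in every setting run. Fxr1-201, with the exon of 81 bases, held 68.0, 64.1, 66.7 and 63.1% in IRSham and 27.2, 0.0, 35.6 and 19.7% in IR (-44.9 ± 6.1 points, adjusted p = 0.00121). In IR library 2 it had 0.00211 TPM, and libraries 1 and 3 held the most of the injured libraries.

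Pkm, pyruvate kinase of muscle and of most other tissues, on chromosome 9, chooses between a pair of mutually exclusive exons of 167 bases each. Pkm-202 carries the exon of the M1 enzyme of adult muscle and Pkm-201 that of the M2 enzyme of growing cells and leukocytes. Pkm-202 held 73.0, 70.8, 68.0 and 67.9% in IRSham and 53.6, 37.7, 44.3 and 42.0% in IR (-25.5 ± 3.7 points, adjusted p = 0.00171). Pkm-201 rose from 23.7 to 28.6% in IRSham to 42.9 to 58.5% in IR. The gene as a whole stood at 1020, 1100, 1270 and 1150 CPM in IR and 1310 to 1380 in IRSham (-0.25 ± 0.09, adjusted p = 0.0228), a difference smaller than the shift of all genes between TMM and library size scaling.

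**Figure D3:**
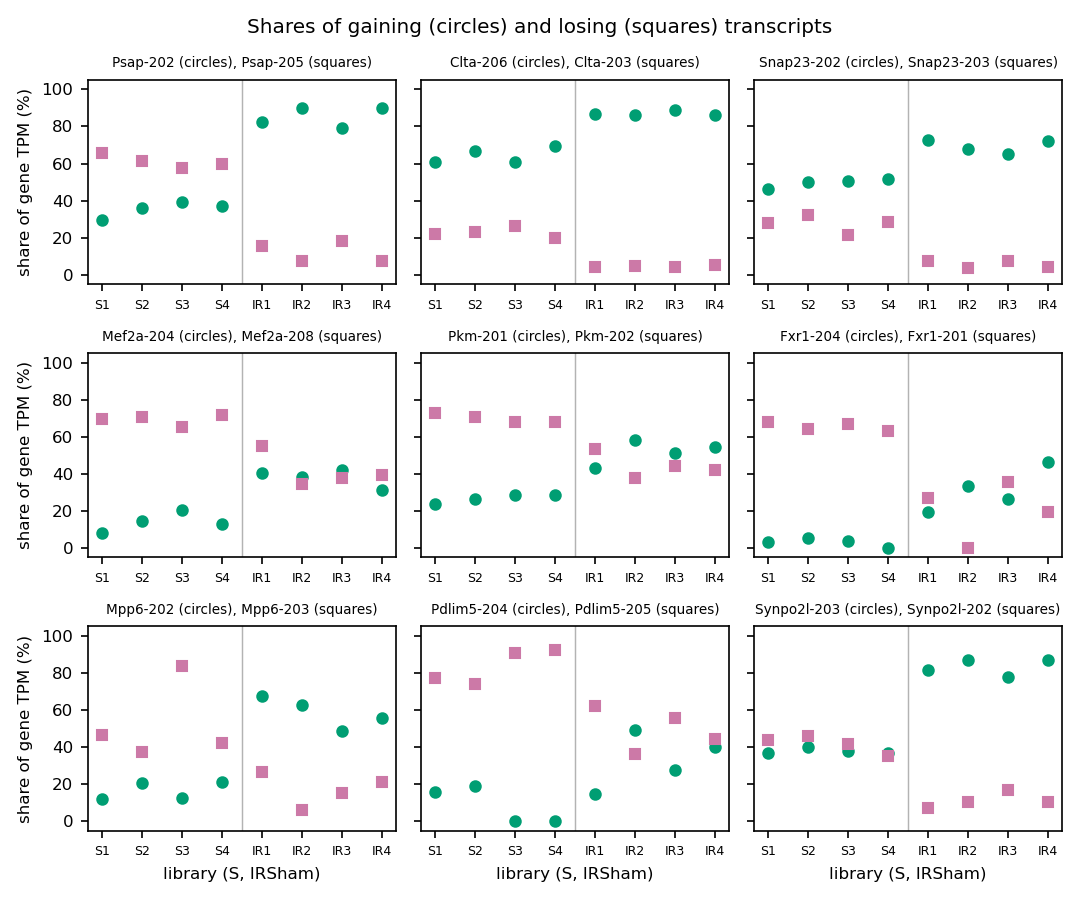
Share of the gene's summed annotated TPM, in percent, held by the gaining transcript (circles) and the losing transcript (squares) in each IRSham library (S1 to S4) and IR library, for 9 genes. The groups do not overlap for either transcript of Psap, Clta, Snap23, Mef2a, Pkm, Fxr1, Mpp6 and Synpo2l; Pdlim5-204 overlaps.

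Further switches concerned the cytoskeleton of muscle. Capzb, which caps the barbed ends of actin filaments, exchanged Capzb-203 (48.6 to 62.2% in IRSham, 24.3 to 36.4% in IR), with an inner exon of 113 bases, for Capzb-204 (8.0 to 17.8% and 34.7 to 44.5%). Synpo2l, a Z-disc protein, used another first exon: Synpo2l-203 held 36.9, 40.2, 38.0 and 36.9% in IRSham and 81.4, 87.1, 78.0 and 87.0% in IR (45.4 ± 3.0 points, adjusted p = 7.14e-06). Palld, palladin, an actin-bundling protein, lost Palld-204, with an inner exon of 51 bases and another first exon, by 42.0 ± 4.3 points and gained Palld-202 by 32.0 ± 3.4. Pdlim5-205, of a Z-disc adaptor and with an exon of 15 bases, fell by 34.0 ± 5.4 points. The 2 main forms of Atp2a2, which differ in the last exon, moved by -16.1 ± 3.8 (Atp2a2-202) and 14.6 ± 3.6 (Atp2a2-201) points; leaving out any 1 of IR libraries 2 and 4 or of the IRSham libraries ended both calls.

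The 83 genes with known alternative splicing in muscle or wounds were chosen with earlier results of these data known. Their counts are therefore a description. Of the 83 genes, 78 were tested for usage and 24 were called, where 9.28% of all genes tested were. Beside those above they held Itgb1, the beta 1 integrin, whose Itgb1-204 with an inner exon of 81 bases fell by 13.5 ± 3.3 points, a call that was lost without IR library 2, 3 or 4 or IRSham library 1 or 2, and Ganab, Bin1, Myl6, Ldb3, Camk2d, Asph, Macf1, Mprip, Sorbs2, Svil, Synpo, Dmd and Fdft1. Fdft1, squalene synthase of sterol synthesis, lost a transcript annotated as retaining an intron: Fdft1-203 held 96.7, 81.4, 96.6 and 95.8% in IRSham and 49.6, 34.5, 59.1 and 20.2% in IR (-51.8 ± 6.8 points, adjusted p = 0.00106). The largest change of all was that of Ano10, a membrane scramblase family member, where Ano10-207 held 89.5 to 93.0% in IRSham and 49.2, 23.9, 62.2 and 10.5% in IR (-54.7 ± 7.9 points). With the 8 libraries alone that call was lost. The remaining genes among the 20 largest were Ap3s1, Atp5g2, Cyb5d2, Krt80, Mdga1, Ncapd3, Pde2a, Ptpre, Sinhcaf, Synpo2, Tyms, Unc45a and Zfp710.

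Of 21 measured splicing regulators known from muscle 10 were lower and 4 higher, where 57.7% of all genes tested were called, with a median of -0.28 that was 0.01 under library size scaling. Ptbp1, which represses many muscle and neuronal exons, including that of the M1 form of Pkm, held 129, 169, 181 and 164 CPM in IR and 48.3, 58.3, 59.9 and 63.6 in IRSham (1.48 ± 0.15, adjusted p = 4.28e-07), and Ptbp3 rose by 1.20 ± 0.09. Rbfox1, which promotes inclusion of muscle exons, held 13.2, 6.69, 11.9 and 7.80 CPM against 34.6 to 44.1 (-1.97 ± 0.17), Rbm20, the splicing regulator of titin, 147, 79.7, 146 and 92.2 against 349 to 441 (-1.74 ± 0.21), and Srrm4, a regulator of microexons, changed by -2.17 ± 0.23. Mbnl1, a regulator of the fetal to adult switch, differed by 0.06 ± 0.07 (adjusted p = 0.471). Of the 24 general factors of the SR and hnRNP families 15 were higher by small amounts (median 0.26), none of them past a 1.5-fold change, and the falls of Srsf5 and Hnrnpl turned to log2 fold changes of 0.01 and 0.08 under library size scaling.

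The response to reperfusion was also set against that to permanent infarction, each relative to its own sham. In MI against MISham 34.8% of genes were higher and 30.2% lower, and the difference between the responses was called for 38 of 19741 genes (0.192%). The MI samples held the infarct core and its surroundings and their libraries were deeper (57.2 to 63.1 M counts), so the injury, the region and the depth cannot be told apart. The count was unstable: it was 282 without IR library 3, 24 without IR library 4, 16 without IR library 1, 19 without IRSham library 3, 5 without IRSham library 2, 3 without IRSham library 4 and 450 with DESeq2.

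Acta2 had the largest difference. Its log2 fold change was -0.24 ± 0.21 in IR and 2.38 ± 0.22 in MI, a difference of -2.63 ± 0.30 (adjusted p = 0.00605). Arntl differed in the other direction, with 0.99 in IR and -0.47 in MI (1.46 ± 0.21, adjusted p = 0.0158). Both differences kept their call in every setting run. Slc2a1, Flt4, Trib1, Pspc1, Cemip2 and Klhl2 were also lower in the IR response than in the MI response, and Zbed5, Slco2b1, Ago4, Pnrc1, Fgd4, Heca and Adi1 higher, by 0.57 to 2.12; each of these 13 lost its call in at least 1 setting.

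**Figure D4:**
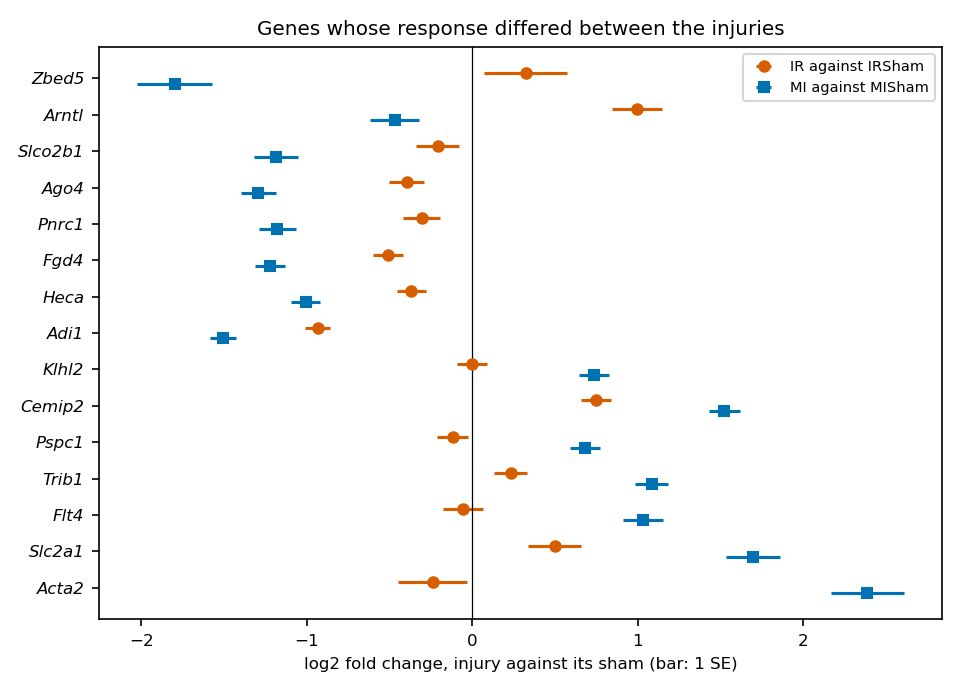
Log2 fold change of IR against IRSham (circles) and of MI against MISham (squares), each with 1 SE, for 15 genes whose responses differed. Acta2 lies at -0.24 in IR and 2.38 in MI, and Zbed5 at 0.32 and -1.80.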

How the data were processed

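The authors deposited a table of raw counts per gene and a table of TPM per transcript, per the file headers. Per the submitters' processing notes, the tools were HISAT2 2.2.1 and kallisto 0.50.1, with SAMtools 1.7 and featureCounts 2.0.1, and the build was GRCm39. Neither the strand setting nor the annotation release is given in the sources used here, and overlapping genes on opposite strands cannot be separated. TPM of transcripts that differ by a short exon are estimates that rest on few reads. The 2 columns of the deposited tables that name no sample were not used. Of 63318 count rows, 9676 lie outside the annotation; they stayed in library totals and in the test (1996 of 19741 genes tested) and are not named. Symbols and exons came from GENCODE M21 (GRCm38) by ID, and no coordinates are given because the builds differ.

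Genes were tested in edgeR 4.0.16 under R 4.3.3 (TMM, filterByExpr with a minimum count of 10 and total of 15, robust quasi-likelihood fit, 1 mean per group over 16 libraries) with Benjamini-Hochberg adjustment, and SEs were derived from the fold change and its F statistic. Transcripts entered limma 3.58.1 as log2(TPM + 1) if their mean reached 1 TPM, and transcript shares entered it as percent, computed from the deposited TPM; shares needed a gene sum of at least 5 TPM and 2 transcripts of at least 5%. The edgeR and limma steps were run on simulated data with known changes in few genes or transcripts and the same spread throughout. Such data do not test scaling under wide change or unequal spread between groups. Named were up to 4 called members per direction of each list and uncalled members with their values, the 15 largest rises and falls, the 8 tightest rises and falls and the 12 widest genes at a mean of at least 10 CPM, the 10 largest transcript changes per direction, the 20 largest share changes with all called genes of the splicing list, and the 8 largest differences from MI per direction. The 67 gene lists and the members were chosen with earlier results of these data known. Alternatives were DESeq2 1.42.0, other scalings and filters, the 8 libraries alone, a replicate block, and leaving out each library. Results for a few genes that these rules select, and 1 exon sequence, are not reported here.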

Additional observations from a re-analysis of the deposited data

Results flagged for a closer look

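In groups of 4 libraries, 19 of 312 sets of values had 1 library far from the other 3, as judged by its gap over the range of the group. Chance flags about 1 in 20 groups, and 19 of 312 is close to that. Of the single genes, Thbs4 held 28.4 CPM in IR library 3 and 106 to 115 in the other injured libraries. Acta2 held 348 CPM in IR library 3 and 290 in each of the others, and Klhl2 26.3 against 20.1 to 20.9. Gm21887, a predicted gene, held 0.225 CPM in IRSham library 1 and 24 to 26.1 in the other sham libraries. Stk39 held 162 CPM in IRSham library 1 against 127 to 132, Pspc1 19 in IRSham library 4 against 17.1 to 17.4, and Cemip2 28.6 in the same library against 24.9 to 25.2. Among shares, Fdft1-203 held 81.4% in IRSham library 2 against 95.8 to 96.7%, and Tyms-207 1.3% in IRSham library 1, where the others are listed at 0.

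Of the lists, by mean log2 CPM, IR library 1 was apart in G1 and S phase (4.74 against 5.14 to 5.19), G2 and mitosis (4.9 against 5.3 to 5.37), the SR and hnRNP factors (7.01 against 7.16 to 7.19) and the atrial list (4.61 against 3.98 to 4.06). IR library 3 was apart in the metalloproteinases (5.82 against 5.58 to 5.61). IRSham library 1 was apart in the intercalated disc (7.98 against 7.85 to 7.87), the circadian clock (5.29 against 5.08 to 5.11) and the SR and hnRNP factors (6.85 against 6.9 to 6.91). IRSham library 4 was apart in the resident fibroblast list (6.23 against 6.42 to 6.45), and IRSham library 2 in the number of genes with at least 10 counts (17210 against 17760 to 17810).

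The response to IR differed from that to MI, by a test of the difference itself in edgeR, for 15 genes given here. On the log2 scale the IR response was higher by 2.12 for Zbed5, 1.46 for Arntl, 0.98 for Slco2b1, 0.89 for Ago4, 0.87 for Pnrc1, 0.71 for Fgd4, 0.64 for Heca and 0.57 for Adi1. It differed by -2.63 for Acta2, -1.2 for Slc2a1, -1.09 for Flt4, -0.85 for Trib1, -0.8 for Pspc1, -0.77 for Cemip2 and -0.74 for Klhl2.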

How the results depend on the processing

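The counts of genes changed between IR and IRSham stayed within 1.5 times of the reported ones under every alternative scaling, filter, left-out library, the 8 libraries alone, the replicate block and DESeq2, which called 6155 higher and 5800 lower. The exception was the test against a 1.5-fold change, with 2655 and 2762. Under library size scaling 5 named falls turned in sign: Hnrnpl to 0.08, Nrp1 to 0.11, Itga9 to 0.06, Srsf5 to 0.01 and Psmb5 to 0.04 on the log2 scale. The 38 genes whose response differed from that to MI became 117 with no filter on low counts, 450 with DESeq2, 6 with the replicate block and 3 (without IRSham library 4) to 282 (without IR library 3) with 1 library left out. At a mean TPM of at least 5, 8449 transcripts were higher and 2425 lower, and with TMM-scaled TPM 7730 and 7913; this last setting was chosen after seeing the data. The 689 genes with changed usage became 183 with the 8 libraries alone, 325 with the replicate block, 267 at a change of at least 20 points, and 417 (without IR library 2) to 711 (without IR library 3) with 1 library left out. Of the transcript shares of named genes 40 lost their call in at least 1 setting, and of the named genes 83. The 154 shares and 405 genes examined include many that were not called at first, so these are not the shares of calls lost. The cause of these shifts was not tested. Some settings leave fewer libraries or transcripts, and the part of that was not tested either. Whether the replicate numbers pair the libraries is not given in the labels. The deviations of same-numbered IR and IRSham libraries correlated at 0.041, 0.025, 0.005 and 0.009 over genes, which cannot exclude a pairing. With the number as a block 5478 genes were higher and 5252 lower, and 16154 transcripts higher and 3569 lower. Few reads limit the precision of rare genes: the sums of the T and NK cell list lay between 10.3 and 44.7 CPM.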

Other observations

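Of 14 genes that low oxygen induces, 4 were higher at 72 h and 7 lower, where 29.5% and 28.2% of all genes tested were. Their median log2 fold change was -0.82. Car9, a carbonic anhydrase of hypoxic cells, was higher by 2.11 ± 0.31 and Hif1a, the oxygen-regulated transcription factor, by 0.56 ± 0.10, while Egln1, the oxygen sensor that marks it for breakdown, was lower by -1.78 ± 0.17 and Pdk1 by -1.28 ± 0.14. Vegfa belongs to the same list. Iron genes were divided, 8 higher and 4 lower of 14 measured: Ftl1, the ferritin light chain, rose by 2.36 ± 0.21, and Gpx4, which protects membranes from lipid peroxides, fell by 0.76 ± 0.11 on the log2 scale. In the Bcl2 family 9 of 15 were higher and 3 lower, with Bcl2a1b at 1.82 and Bid, which carries death signals to mitochondria, at 1.66.

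Of 18 genes of sterol synthesis 11 were higher (median 0.56), among them Sqle (1.56 ± 0.38), and IR library 4 lay 1.00 above sham in mean log2 CPM where the others lay 0.22 to 0.39 above. Among 21 integrins 13 were higher and 4 lower: Itga11, a collagen receptor of fibroblasts, rose by 2.10 ± 0.24 and Itgav by 1.46 ± 0.11, and Itgb6, of epithelia, was lower by -1.35 ± 0.22. Of 8 lymphatic genes 5 were lower and 2 higher, with Prox1, a transcription factor, at -1.92 ± 0.21. The mean log2 CPM of this list was 3.34 to 3.97 in IR and 3.97 to 4.41 in IRSham. Pericyte and smooth muscle genes were evenly divided, 6 higher and 6 lower of 14, where 29.5% and 28.2% of all genes tested were. Among them were Cnn1, calponin 1, at 3.33 ± 0.42 and Abcc9, a channel subunit of pericytes and heart muscle, at -1.84 ± 0.19.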
